A study of Rattus norvegicus with 4 samples.

Results

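Slc2a1, Slc2a4, Hk2 and Pdk4 encode 4 proteins that set how much glucose a heart muscle cell takes up and how much of it is burned. They were chosen by name for these roles and found by their Ensembl identifiers (ENSRNOG00000007284, ENSRNOG00000017226, ENSRNOG00000006116 and ENSRNOG00000009565). All 4 of 4 were listed in every library, among 26406 features, and all 4 were among the 12226 features compared, which averaged at least 1 RPKM (reads divided by the length of the gene model in kb and scaled to the library's read total). RNA came from neonatal rat ventricular myocytes, the contracting cells of the newborn heart ventricle in primary culture, prepared from Sprague Dawley hearts at 2 days of age. Each of the 4 groups was a single library: a negative control siRNA or one directed at Chaer, a long noncoding RNA, each without and with phenylephrine. Every culture therefore went through a 6 h siRNA transfection, and RNA was collected after 48 h, with 50 µM phenylephrine in the treated cultures. Phenylephrine activates α1-adrenergic receptors and makes these cells grow, as a model of cardiac hypertrophy. The series addressed what Chaer contributes to the transcriptional response to it.

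Glucose enters the myocyte through carrier proteins of the membrane. The Slc2a1 product, GLUT1, carries basal uptake and is the carrier that prevails in the fetal and newborn heart, whereas the Slc2a4 product, GLUT4, moves to the surface on insulin stimulation and prevails in the adult heart. The Hk2 product, hexokinase II, phosphorylates the incoming glucose and thereby traps it in the cell. The Pdk4 product is a kinase that inactivates the pyruvate dehydrogenase complex and so keeps pyruvate out of mitochondrial oxidation; its transcription is known to respond to fasting and fatty acids. The hypertrophied heart is known to lean more on glucose and less on fatty acids.

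The libraries held between 33944988 and 39155363 reads in listed features, and each of the 4 transcripts was covered by at least 1735 reads in every library. With 1 library a group, no value has an error from replicate cultures. Intervals are 95% counting intervals, and they leave out any difference between cultures. Whether the libraries stem from separate cultures is not stated in the labels. The files give identifiers without symbols for all features but 1, so the lists of cell type markers and of other pathway genes could not be applied, and Chaer itself was not analysed here. In bulk RNA, fewer cells of a type and less RNA per cell cannot be told apart. Genes are compared with each other on the RPKM scale, which divides by the length of the gene model: 2573 bp for Slc2a1, 2543 bp for Slc2a4, 3633 bp for Hk2 and 3474 bp for Pdk4.

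The regions just before the annotated transcript starts are shown as reference sequence only. RefSeq's table for assembly GRCr8 held a promoter for 3 of the 4 genes. Each line gives the 250 bases before the start, on the strand of the gene, for Slc2a1 chr5:138002272-138002521 (plus strand), for Hk2 chr4:116841276-116841525 (minus strand) and for Pdk4 chr4:34568330-34568579 (minus strand). Capitals mark matches, on either strand, to 4 motifs.
Slc2a1: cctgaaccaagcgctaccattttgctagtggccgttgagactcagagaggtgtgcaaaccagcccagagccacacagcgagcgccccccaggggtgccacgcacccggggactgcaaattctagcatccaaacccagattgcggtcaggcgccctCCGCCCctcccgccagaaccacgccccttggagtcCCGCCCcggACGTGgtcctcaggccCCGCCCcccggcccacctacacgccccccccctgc
Hk2: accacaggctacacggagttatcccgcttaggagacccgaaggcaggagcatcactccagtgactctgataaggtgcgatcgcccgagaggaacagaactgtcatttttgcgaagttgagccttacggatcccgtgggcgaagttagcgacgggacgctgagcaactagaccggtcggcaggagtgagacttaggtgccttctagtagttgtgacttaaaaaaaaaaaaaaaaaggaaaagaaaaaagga
Pdk4: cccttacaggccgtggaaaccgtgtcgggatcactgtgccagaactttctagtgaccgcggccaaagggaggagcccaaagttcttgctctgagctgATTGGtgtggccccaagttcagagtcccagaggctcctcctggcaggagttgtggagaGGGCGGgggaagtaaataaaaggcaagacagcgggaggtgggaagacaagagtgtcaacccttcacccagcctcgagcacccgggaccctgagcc
The motifs were the TATA box (TATAAA), the CCAAT box (CCAAT), the GC box (GGGCGG) and ACGTG, the core of the hypoxia response element. They stand in 12.9%, 34.0%, 30.5% and 16.6% of the 33469 windows of this length in the table. The Slc2a1 window held 3 matches to the GC box and 1 to ACGTG, with 68.4% G and C. The Pdk4 window held 1 match to the GC box and 1 to the CCAAT box, with 59.2% G and C. The Hk2 window, with 49.6% G and C, held 0 matches to any of the 4. Over all 33469 windows the median share of G and C was 51.2%. No measurement here bears on binding at these windows.

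In the unstimulated control siRNA library the 2 carriers were the most abundant of the 4 transcripts, and GLUT4 led. Slc2a4 stood at 49.2 RPKM (47.8 to 50.6), a level above that of 87.1% of the compared features. Slc2a1 followed at 37.2 RPKM (36.0 to 38.5). Hk2 at 16.5 RPKM (15.8 to 17.2) and Pdk4 at 15.3 RPKM (14.6 to 16.0) lay close together. Their counting intervals overlapped, though the ratio of Hk2 to Pdk4 in that library, 1.08 (1.01 to 1.14), put Hk2 slightly higher. Over all 4 libraries the highest level of a transcript exceeded its lowest by 1.53 times for Slc2a1, 1.44 for Slc2a4, 1.41 for Hk2 and 1.60 for Pdk4. All 4 were thus present at moderate to high levels in every library, and none varied by 2-fold.

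**Figure D1:**
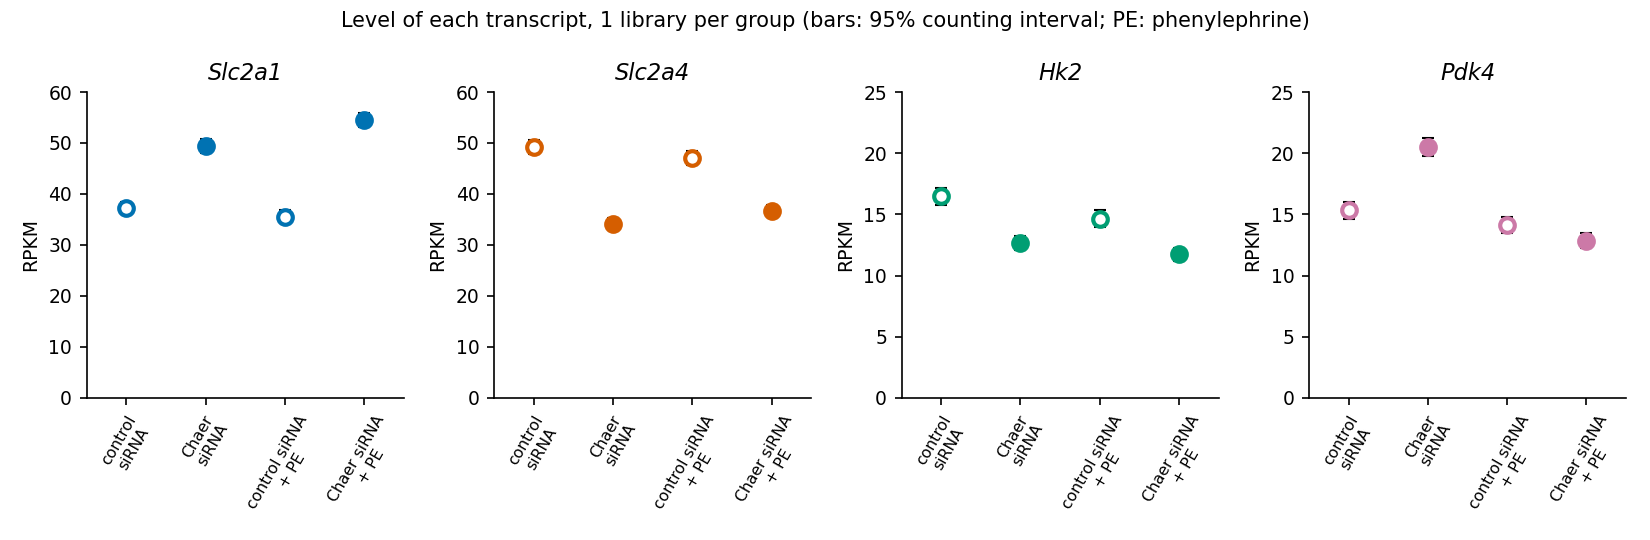
Level in RPKM (vertical axes, from 0; 0 to 60 for the carriers and 0 to 25 for Hk2 and Pdk4) of each transcript in the 4 libraries, with open circles for control siRNA, filled circles for Chaer siRNA and bars for the 95% counting interval. The filled circles lie above the open ones for Slc2a1 and below them for Slc2a4 and Hk2, while for Pdk4 the library with Chaer siRNA and no phenylephrine stands highest, at 20.5 RPKM.

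With Chaer siRNA the GLUT1 transcript rose and the GLUT4 transcript fell. Slc2a1 stood at 37.2 RPKM in the control siRNA library, 35.6 with control siRNA plus phenylephrine, 49.5 with Chaer siRNA and 54.4 with Chaer siRNA plus phenylephrine. Both Chaer siRNA libraries lay above both control siRNA libraries, as they did for 19.8% of all compared features. The ratio of Chaer to control siRNA was 1.33 (1.27 to 1.39) without phenylephrine and 1.53 (1.47 to 1.60) with it. In an edgeR quasi-likelihood fit of both factors over the 4 libraries, the Chaer siRNA term of Slc2a1 was a rise of 0.50 ± 0.14 (SE) in log2 units, with an adjusted p = 0.00261. That term was higher than the terms of 92.8% of the 12226 features.

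Slc2a4 went the other way. It stood at 49.2 RPKM with control siRNA and 47.0 with control siRNA plus phenylephrine, against 34.0 with Chaer siRNA and 36.6 with Chaer siRNA plus phenylephrine. Both Chaer siRNA libraries lay below both control siRNA libraries, as they did for 22.0% of features. Its level was 1.44 times lower (1.38 to 1.51) with Chaer siRNA in unstimulated cells and 1.28 times lower (1.23 to 1.34) under phenylephrine. In the edgeR fit, the Chaer siRNA term of Slc2a4 was -0.45 ± 0.14 (SE) in log2 units (adjusted p = 0.00843). The term of 10.4% of features was lower still. DESeq2 on the same model gave Slc2a4 an adjusted p = 0.0640, so its call did not hold with that tool, whereas Slc2a1 kept an adjusted p = 0.0191 there.

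Hk2 had lower values in the Chaer siRNA libraries of either condition, but did not pass the test. Its levels were 16.5 RPKM with control siRNA, 14.6 with control siRNA plus phenylephrine, 12.7 with Chaer siRNA and 11.7 with Chaer siRNA plus phenylephrine. The Chaer siRNA libraries again lay below both others. Its level was 1.30 times lower (1.22 to 1.38) without phenylephrine and 1.25 times lower (1.17 to 1.33) with it. The edgeR term was -0.36 ± 0.15 (SE) on the log2 scale, with an adjusted p = 0.0683. Hexokinase II and GLUT4 transcripts thus had terms of the same sign, and GLUT1 the opposite one.

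Pdk4 gave ratios of opposite sign for Chaer siRNA in the 2 conditions. Its levels were 15.3 RPKM (14.6 to 16.0) with control siRNA, 14.1 (13.5 to 14.8) with control siRNA plus phenylephrine, 20.5 (19.7 to 21.3) with Chaer siRNA and 12.8 (12.3 to 13.4) with Chaer siRNA plus phenylephrine. The unstimulated Chaer siRNA library stood apart, and the other 3 lay between 12.8 and 15.3 RPKM. Without phenylephrine the ratio of Chaer to control siRNA was 1.34 (1.26 to 1.42), and with phenylephrine 0.908 (0.850 to 0.970). The edgeR term for Chaer siRNA, which averages over both conditions, was 0.13 ± 0.15 (SE) on the log2 scale (adjusted p = 0.598).

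Of the 4 transcripts, 2 passed the edgeR test for Chaer siRNA, 1 in each direction, beside 19.6% of all 12226 features. None of the 4 reached 2-fold in either Chaer siRNA comparison, a size reached by 3.79% of features without and 3.54% with phenylephrine on the scale of RPKM plus 0.1. A ratio of 1.5-fold was reached by Slc2a1 with phenylephrine, as by 12.9% of features. None of the 4 reached it without phenylephrine, where 15.9% of features did. With 5 added to RPKM in place of 0.1, Slc2a1 fell short of it (log2 ratio 0.55 against 0.61). Scaled to read totals without the 20 most abundant features, Slc2a4 reached it without phenylephrine (-0.61 against -0.53). The error of the edgeR fit comes from departures from additivity over all features, on 1 residual degree of freedom, and not from replicate cultures. Its prior degrees of freedom were estimated as infinite, so a shared trend over features, treated as known without error, set the spread, and the deviation of each transcript itself had no weight in its SE and p. With only features averaging at least 5 RPKM the prior degrees of freedom were 11.6, and the edgeR adjusted p was 0.0199 for Slc2a1 and 0.0220 for Slc2a4. When phenylephrine was dropped from the model and its effect thus counted as error, the terms were 0.51 for Slc2a1 (edgeR adjusted p = 0.265) and -0.45 for Slc2a4 (edgeR adjusted p = 0.313), and neither passed.

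**Figure D2:**
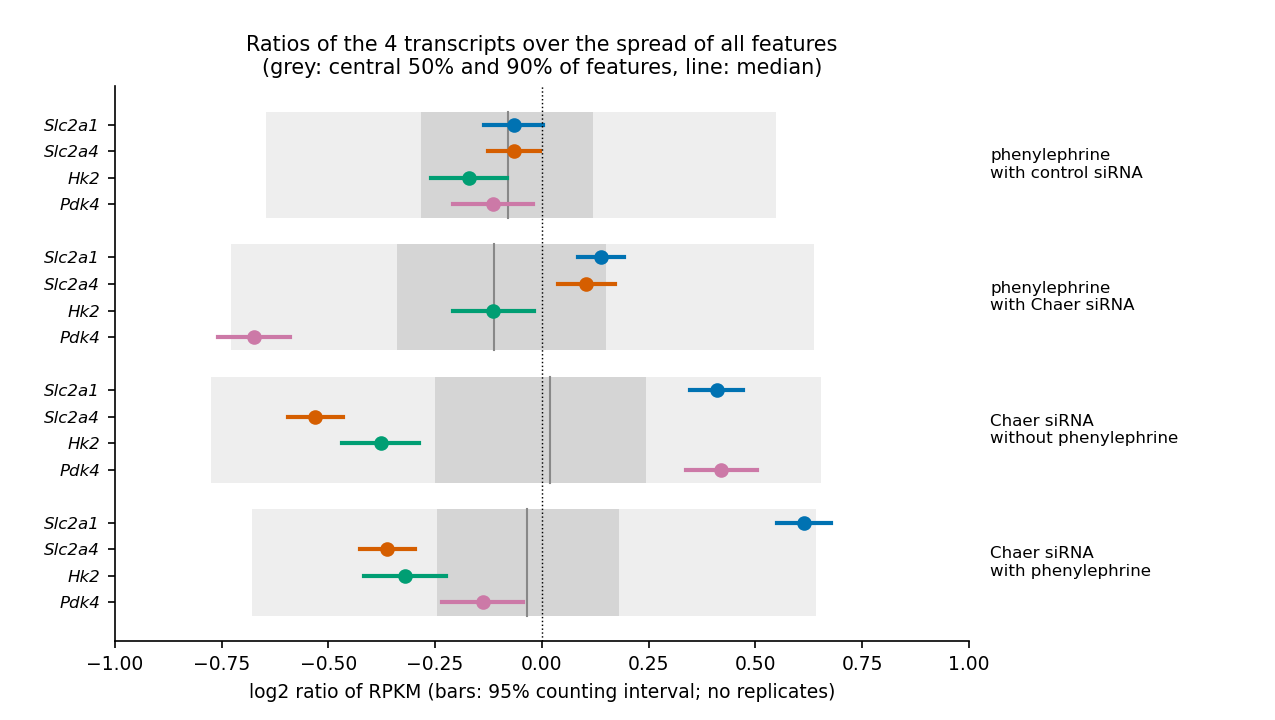
Log2 ratio of RPKM (horizontal axis) of each transcript in the 4 pairwise comparisons, with bars for the 95% counting interval; grey bands hold the central 50% and 90% of the 12226 features on the scale of RPKM plus 0.1, and the grey line is their median. With Chaer siRNA the carriers lie on opposite sides of the median in both conditions, and the ratio of Pdk4 with phenylephrine under Chaer siRNA, -0.67, is the lowest drawn.

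The ratio of the carriers within a library does not depend on how libraries are scaled to each other. Slc2a1 per Slc2a4, in RPKM, was 0.757 (0.725 to 0.791) with control siRNA and 0.757 (0.723 to 0.793) with control siRNA plus phenylephrine. It was 1.45 (1.39 to 1.52) with Chaer siRNA and 1.49 (1.43 to 1.55) with Chaer siRNA plus phenylephrine. GLUT4 transcript led in both control siRNA libraries and GLUT1 transcript in both Chaer siRNA libraries. The ratio was 1.92 times higher (1.80 to 2.04) with Chaer siRNA in unstimulated cells and 1.97 times higher (1.85 to 2.09) under phenylephrine. With phenylephrine it was 1.00 times (0.938 to 1.07) its value without under control siRNA, and 1.02 times (0.966 to 1.09) under Chaer siRNA. The summed level of the carriers differed less, at 86.4 RPKM with control siRNA, 82.6 with control siRNA plus phenylephrine, 83.5 with Chaer siRNA and 91.0 with Chaer siRNA plus phenylephrine. Slc2a1 made up 43.1% of that sum in each control siRNA library, 59.2% with Chaer siRNA and 59.8% with Chaer siRNA plus phenylephrine.

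The corresponding ratio of Hk2 to Pdk4 was lower in both Chaer siRNA libraries than in both control siRNA libraries, but by unlike amounts. With Chaer siRNA it was 0.575 times (0.529 to 0.626) its control siRNA value without phenylephrine, and 0.882 times (0.804 to 0.967) under phenylephrine. It was 1.08 (1.01 to 1.14) with control siRNA, 1.04 (0.969 to 1.11) with control siRNA plus phenylephrine and 0.913 (0.854 to 0.975) with Chaer siRNA plus phenylephrine, but 0.619 (0.584 to 0.656) with Chaer siRNA alone. In the control siRNA library with phenylephrine the 2 transcripts could not be ordered within counting error. Slc2a4 per Hk2 was 2.98 and 3.21 in the control siRNA libraries and 2.68 and 3.12 in the Chaer siRNA libraries, so these transcripts kept closer to each other than either did to Slc2a1. Slc2a1 per Hk2 was 2.26 and 2.43 with control siRNA and 3.90 and 4.64 with Chaer siRNA.

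**Figure D3:**
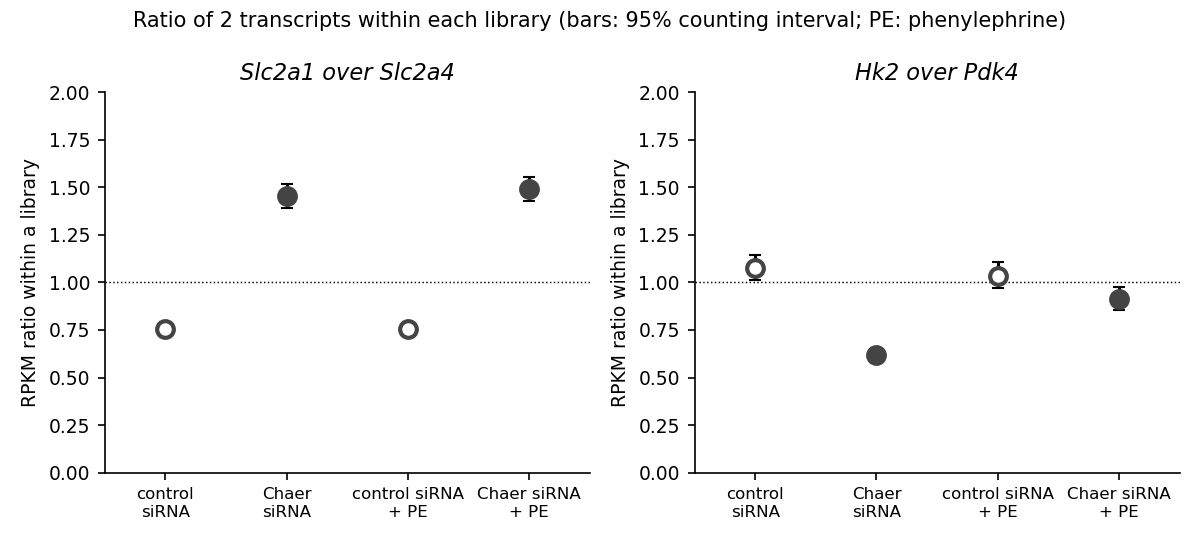
RPKM ratio of 2 transcripts within each library (vertical axes, from 0; dotted line at equal levels), with open circles for control siRNA, filled circles for Chaer siRNA and bars for the 95% counting interval. Slc2a1 over Slc2a4 lies at 0.757 in both control siRNA libraries and at 1.45 and 1.49 in the Chaer siRNA libraries, and Hk2 over Pdk4 is lowest, at 0.619, with Chaer siRNA alone.

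Neither glucose carrier passed the test for phenylephrine. Under control siRNA, Slc2a1 went from 37.2 to 35.6 RPKM, a ratio of 0.956 (0.911 to 1.00), and Slc2a4 from 49.2 to 47.0 RPKM, a ratio of 0.956 (0.916 to 0.997). Under Chaer siRNA the ratios were 1.10 (1.06 to 1.14) for Slc2a1 and 1.07 (1.03 to 1.13) for Slc2a4. The sign under control siRNA depended on the scaling, since both log2 ratios of -0.07 became 0.01 with TMM factors, edgeR's scaling between libraries. Over all features the median log2 ratio for phenylephrine was -0.08 (control siRNA) or -0.11 (Chaer siRNA). Thus both carriers lay 0.01 above it under control siRNA, and 0.25 (Slc2a1) and 0.22 (Slc2a4) above it under Chaer siRNA. In the edgeR fit the phenylephrine terms were 0.13 ± 0.14 (SE) for Slc2a1 (adjusted p = 0.594) and 0.12 ± 0.14 (SE) for Slc2a4 (adjusted p = 0.659).

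Hk2 did not pass for phenylephrine either. Its ratio was 0.888 (0.835 to 0.945) under control siRNA and 0.924 (0.865 to 0.987) under Chaer siRNA. The log2 ratio under Chaer siRNA, -0.11, equalled the median of all features there, and with TMM scaling, which moved that median by 0.11, it became 0.0008 (median-ratio scaling moved the median by 0.10). Its edgeR term was -0.05 ± 0.15 (SE) on the log2 scale (adjusted p = 0.886).

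Among the 4, Pdk4 had the phenylephrine ratio farthest from 1, under Chaer siRNA, though its term did not pass the test. From 20.5 RPKM without to 12.8 RPKM with phenylephrine, its ratio was 0.627 (0.591 to 0.665) there, below the ratios of 93.7% of features. Under control siRNA it was 1.08 times lower (1.01 to 1.16). Both phenylephrine libraries lay below both untreated ones, as they did for 28.3% of features. The edgeR term of Pdk4 for phenylephrine was -0.30 ± 0.15 (SE) on the log2 scale, with an adjusted p = 0.164, and with scaling by library size alone it was -0.40 with an edgeR adjusted p = 0.0507.

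For phenylephrine, 0 of the 4 transcripts passed the edgeR test, beside 15.4% of all features. Without adjustment 1 of them, Pdk4, was under 0.05 in that edgeR test; DESeq2 called 0 of the 4 after adjustment and 0 without it. None of the 4 reached 2-fold, as 2.87% of features did under control siRNA; under Chaer siRNA 3.47% did. A ratio of 1.5-fold was reached by Pdk4 under Chaer siRNA, as by 15.0% of features. None of the 4 reached it under control siRNA, where 10.9% of features did. The Pdk4 log2 ratio under Chaer siRNA was -0.67 in the main setting. It fell short of 1.5-fold with TMM scaling (-0.56), with median-ratio scaling (-0.57) and with 5 added to RPKM in place of 0.1 (-0.51).

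The difference of the phenylephrine effects, the log2 ratio under Chaer siRNA minus that under control siRNA, was -0.56 for Pdk4 (-0.68 to -0.43 by counting error). It was lower in 3.68% of features, and at least as large in size, in either direction, in 11.4%. Over all compared features the differences had a median of -0.07 and an SD of 0.38. The same quantity was 0.20 (0.12 to 0.29) for Slc2a1, 0.17 (0.08 to 0.26) for Slc2a4 and 0.06 (-0.07 to 0.19) for Hk2. For none of the 4 did it reach 2-fold, as it did for 1.68% of features. With 1 library a group no test of this difference was possible with both main effects in the model. The value of Pdk4 rests on the single library with Chaer siRNA and no phenylephrine.

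**Figure D4:**
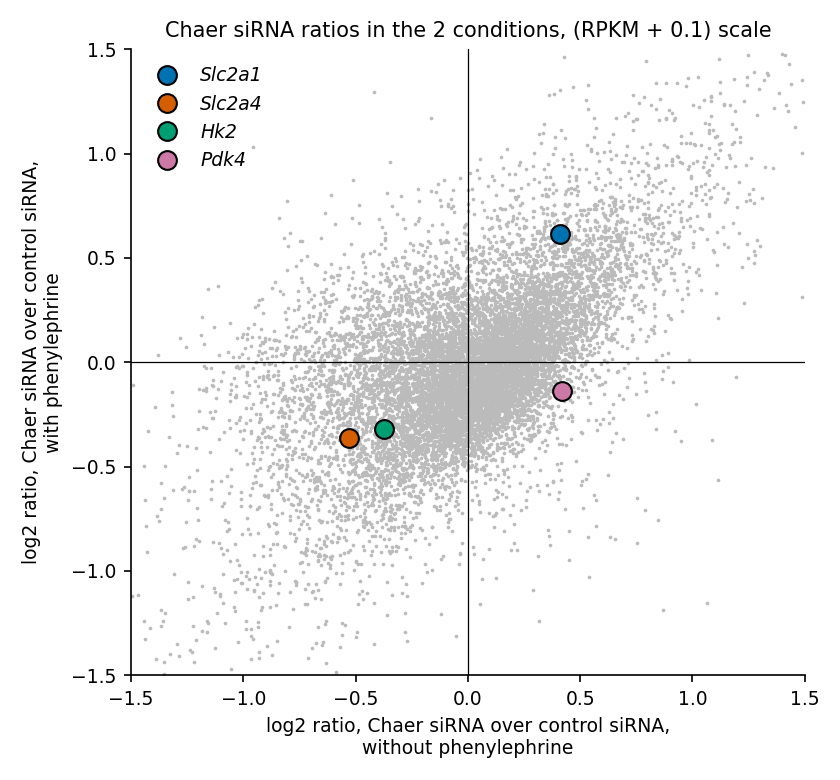
Log2 ratio of Chaer siRNA over control siRNA without phenylephrine (horizontal) against that with phenylephrine (vertical), on the scale of RPKM plus 0.1, for 12058 of the 12226 features (grey; 168 lie outside the axes) and the 4 transcripts; the axes share no library. Slc2a1 lies in the upper right, Slc2a4 and Hk2 in the lower left, and Pdk4 in the lower right, at 0.42 and -0.14.

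The features whose profile over the 4 libraries was most like each transcript were sought among the 8895 features that averaged at least 5 RPKM. Likeness was the root mean square difference of log2 levels, each centred on its own mean. Nearest to Slc2a1 was ENSRNOG00000016212, at 0.022, with 19.8 and 19.6 RPKM in the control siRNA libraries without and with phenylephrine and 27.1 and 29.0 in the Chaer siRNA ones. Nearest to Slc2a4 was ENSRNOG00000014148, at 0.024, with 7.12 and 7.11 RPKM against 5.08 and 5.39. Nearest to Hk2 was ENSRNOG00000018477, at 0.0055, with 22.9 and 20.5 RPKM against 17.6 and 16.4. Nearest to Pdk4 was ENSRNOG00000000988, at 0.012, with 14.6 and 13.6 RPKM against 19.8 and 12.5. Among the 4 transcripts the closest pair was Slc2a4 and Hk2, at 0.098, and the farthest Slc2a1 and Slc2a4, at 0.48. Even so, Hk2 ranked only 213th among the features nearest to Slc2a4, and Slc2a4 ranked 374th among those nearest to Hk2. Each profile holds only 4 values.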

How the data were processed

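RNA of 4 libraries was sequenced from stranded TruSeq libraries of total RNA, per the labels' protocols. The submitters' processing notes name TopHat2 and the build rn5; the counting tool, annotation release, strand setting and filters are each not given in the sources used, so reads of genes that overlap on the other strand may not be told apart. Per the file headers, the authors deposited raw read counts and RPKM values for 26406 features. Counts divided by RPKM gave whole gene lengths times 1 read total per library, which left 3.88% to 4.29% of reads outside the features. The reference table (GRCr8) pairs 0 of the identifiers with a symbol; member names come from the rule that chose them.

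The 4 genes and all lists were chosen with earlier results of these data known. Named features are the 4 genes and the nearest feature to each. Ratios of RPKM carry exact binomial intervals, levels exact Poisson intervals and differences of effects a normal approximation on log counts; changes of within-library ratios use the same approximation. All of these hold counting error alone; the reads carry no molecular identifiers and so are not independent molecules. A log2 ratio of RPKM plus 0.1 was set against 2-fold among features averaging at least 1 RPKM.

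The test was edgeR 4.0.16 (R 4.3.3), a quasi-likelihood fit of siRNA plus phenylephrine on deposited counts, TMM scaling, Benjamini-Hochberg adjustment over 12226 features, threshold 0.05; SEs come from its F statistic. DESeq2 1.42.0, other pseudocounts, filters, scalings and size rules were alternatives.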

Additional observations from a re-analysis of the deposited data

Results flagged for a closer look

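Ratios of opposite sign in the 2 arms of a contrast drew attention to 3 transcripts; each arm is 1 library against another, and the differences were not tested. Slc2a1 had phenylephrine log2 ratios of -0.07 under control and 0.14 under Chaer siRNA, a difference of 0.20. Slc2a4 had -0.07 and 0.10, a difference of 0.17. Both were above the median of all features in both arms. Pdk4 had Chaer siRNA log2 ratios of 0.42 without and -0.14 with phenylephrine, a difference of -0.56, and these lay 0.40 above and 0.10 below the median of all features (0.02 and -0.03).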

How the results depend on the processing

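Of 20 member values (4 transcripts in 4 pairwise comparisons and the difference of effects), 17 kept their sign under all 7 alternatives of pseudocount, filter and scaling. Filters and pseudocounts cannot turn the sign of a pairwise ratio, so for the pairwise values only the scalings could do so. The 3 that turned, all with TMM scaling, were the phenylephrine log2 ratios of Slc2a1 (0.01) and Slc2a4 (0.01) under control siRNA and of Hk2 under Chaer siRNA (0.0008). All 8 additive terms kept their sign under 5 alternatives. The Chaer siRNA term of Slc2a1 passed in all but the model without phenylephrine (0.51), with edgeR and DESeq2 adjusted p from 0.00261 to 0.265 over the settings. That of Slc2a4 was not past the threshold with DESeq2 (-0.44) or without phenylephrine in the model (-0.45), with adjusted p from 0.00843 to 0.313. The Hk2 term did not pass in any of them (edgeR and DESeq2 adjusted p from 0.0683 to 0.393). The change of the Slc2a1 to Slc2a4 ratio with Chaer siRNA was 1.79 without and 1.83 with phenylephrine when a pseudocount of 5, chosen after seeing the data, was added.

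Counts of all features past 2-fold moved more, though less with the scalings than with the other choices. In the order phenylephrine with control siRNA, phenylephrine with Chaer siRNA, Chaer siRNA without phenylephrine, Chaer siRNA with phenylephrine and the difference of effects, they were 351, 424, 463, 433 and 205. Median-ratio scaling gave 346, 428, 460, 436 and 231, and TMM scaling 342, 428, 472, 433 and 226. Read totals without the 20 most abundant features gave 383, 422, 515, 431 and 250. Under control siRNA, TMM scaling put 213 features higher and 129 lower with phenylephrine, against 182 and 169 in the main setting. A pseudocount of 1 gave 211, 241, 261, 226 and 66, and one of 5 gave 93, 96, 92, 84 and 10. A mean RPKM of at least 5 left 183, 237, 242, 223 and 65, and no filter 901, 874, 1076, 963 and 994. The 1.5-fold rule gave 1328, 1838, 1946, 1572 and 1242. The edgeR fit called 1877 features for phenylephrine and 2397 for Chaer siRNA; DESeq2 called 903 and 1063, a mean RPKM of at least 5 left 1145 and 1372, and the model without the other factor 8 and 1. A larger pseudocount brings every pairwise ratio closer to 1, and the narrower filter tests fewer features. Leaving out the filter or using the 1.5-fold rule can only add features to the counts past a threshold. In the model without the other factor, the effect of that factor is counted as error. The cause of the other moves was not tested.

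No paired analysis was possible because there is a single library per group, without replicate numbers. Leaving out a library removes a group and the only residual degree of freedom.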
